A study of Solanum lycopersicum with 6 samples.

Results

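Ethylene, the hormone that drives ripening of tomato fruit, is made from S-adenosylmethionine in successive enzymatic steps. ACC synthase (ACS) converts S-adenosylmethionine into 1-aminocyclopropane-1-carboxylic acid (ACC), and ACC oxidase (ACO) turns ACC into ethylene. Green tomato fruit makes a low basal amount of ethylene, and at the onset of ripening synthesis becomes autocatalytic. In tomato, ACS1A and ACS6 are known from green fruit, while ACS2 and ACS4 are the synthase genes of the ripening burst. E8 is a classic ripening gene that ethylene induces, and it encodes a dioxygenase related in sequence to ACC oxidase.

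The genes described here are ACS1A, ACS2, ACS4, ACO6 and E8, taken as every probe set whose platform annotation carries exactly 1 of these symbols. They are 5 of the 802 gene symbols on the array and have 7 probe sets among the 10101 tested. ACO6 has 3 probe sets, numbered 1 to 3 as in their identifiers (1.A1, 2.S1 and 3.S1), and each of the other genes has 1. The probe sets of ACO6 share 1 gene as their target, so they are not replicates of one another.

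The arrays were hybridized with RNA from fruits of Micro-Tom, a dwarf cultivar of tomato. The drought group (3 arrays) came from plants that received liquid fertilizer diluted 500-fold once a week. The control group (3 arrays) came from plants kept under normal conditions and given the same dilution, with no interval stated. Both groups grew in the same greenhouse conditions, 25 °C in daytime and 20 °C at evening, and their fruits were picked 30 to 40 days after flowering and labelled as mature green. The treatment is described by the supply of fertilizer solution alone, so the parts of water and of nutrients cannot be told apart. The labels do not say whether arrays of a group came from separate plants or from pooled fruits, so every p-value reflects how far these samples spread, and that spread may be technical.

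The stage label was checked against marker genes, by the place of each probe set's value among all probe sets of its array. The fruit-specific gene 2A11 lay at or above the 99.99th percentile of each array. PG2, the polygalacturonase gene switched on in ripening, lay at the 6.46th to 6.47th percentile. The chlorophyll-binding protein genes CAB6A and CAB4 lay above the 79th percentile, while CAB5 lay between the 35.9th and the 40.2nd. E8 itself lay between the 34.6th and the 38.8th percentile. Other genes of the ripening list described below lay at low and at high places. NOR lay at the 27.0th to 28.0th percentile, Psy1 at the 85.2nd to 85.4th, TDR4 at the 86.4th to 86.7th and LOX1.1 at the 92.9th to 93.5th. These places alone therefore do not settle the stage.

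The deposited values vary very little, which sets the scale for all that follows. In 75.7% of the tested probe sets the 6 arrays spanned less than 0.001 on the log2 scale. The 27 bacterial and phage spike-in probe sets spanned at most 0.000467. The 14 tomato housekeeping control probe sets (actin, elongation factor, GAPDH and ubiquitin) spanned at most 0.00671. Control replicate 3 correlated more closely across probe sets with the drought arrays (r 0.9990 to 0.9992) than with controls 1 and 2 (0.9960 and 0.9970). Differences without this array are given where it lies among the drought arrays or moves a value.

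Over all 7 probe sets, ACO6 had lower values in fruits of drought plants at each of its 3 probe sets, and all 3 drought arrays lay below all 3 control arrays each time, as they did in 14.3% of all tested probe sets. ACS1A had the largest difference in size, also toward lower values in drought, but its arrays overlapped. E8, ACS4 and ACS2 had differences within the spread of their own arrays. None of the 7 probe sets passed limma's adjusted p of 0.05, against 77 of all 10101 tested (0.762%). Those 77 became 546 without control replicate 3 and 0 to 7 without any other single array, while the 7 probe sets stayed at 0 calls. Of the 7, 3 (all of ACO6) had an unadjusted p under 0.05, against 25.0% of all tested in either direction and 9.12% toward lower values. The mean was lower in drought at 6 of the 7 probe sets (50.8% of all tested), but ACO6 supplies 3 of these. Among the others, ACS4 (-0.00040) differed by less than the widest spike-in range (0.000467). The median difference of the 7 was -0.023, against -1.07e-07 over all tested probe sets. This median is the value of E8, whose difference lay within the spread of its own arrays. Neither the count nor the median therefore shows a shift shared by the genes.

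**Figure D1:**
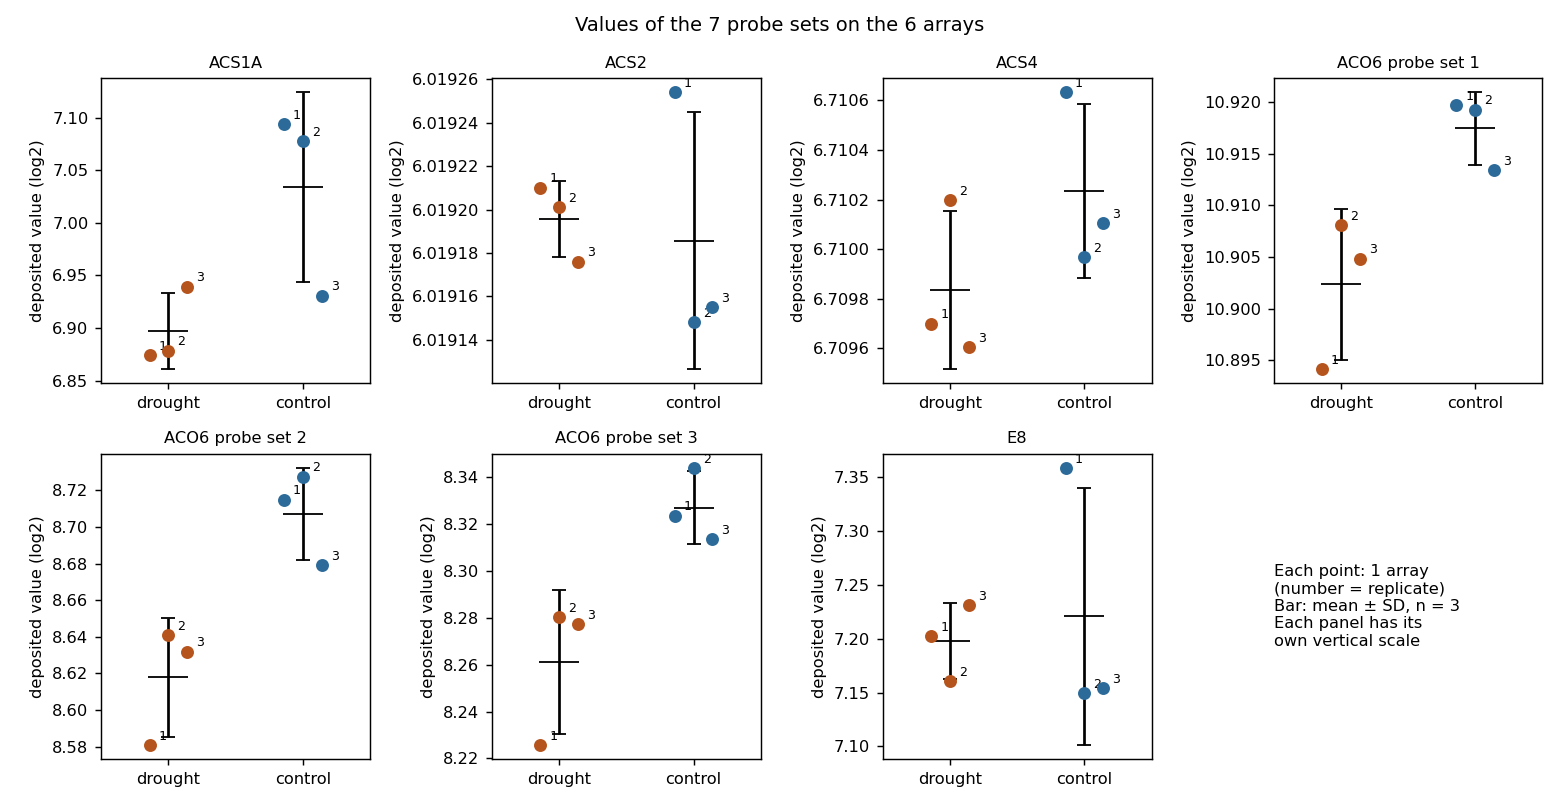
Deposited log2 value (vertical axis, a scale of its own in each panel) of the 7 probe sets on the 3 drought and 3 control arrays. Points are arrays numbered by replicate, and bars give the mean ± SD of 3 arrays. In the 3 ACO6 panels the drought arrays all sit below the control arrays, in the ACS1A panel control replicate 3 sits among the drought arrays, and in the E8 panel control replicate 1 stands above the other 5 arrays.

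Among the ACC synthase genes, ACS1A had values of 6.874, 6.878 and 6.939 in drought fruits, against 7.094, 7.078 and 6.931 in control fruits. Control replicate 3 lay just below drought replicate 3, so that the groups overlapped by 0.0086, while control replicates 1 and 2 stood above every drought array.

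The ACS1A probe set lay between the 29.3rd and the 33.7th percentile of the arrays, with no call of whether it was above background. Its mean was 6.90 ± 0.036 in drought and 7.03 ± 0.090 in control (SD, n = 3 each). The difference was -0.14 ± 0.054 (limma SE), with a 95% interval from -0.28 to 0.0069 and an adjusted p of 0.215. As a ratio of the deposited values taken out of logarithms, this is -9.05%, with the reserve that these values need not follow measured brightness in proportion. Without control replicate 3 the difference was -0.19 ± 0.026 (SE, limma adjusted p = 0.0545). With any other array left out it ran from -0.11 to -0.16. An exact two-sided permutation test over the 20 ways to divide the 6 arrays gave p = 0.2, where 0.1 is the smallest p this design allows.

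ACS1A has a near-identical copy, ACS1B, which is its direct neighbour in the RefSeq gene order with 0 genes between them. The array has no probe set under the name ACS1B, and whether the ACS1A probe set also binds its transcript is not known here.

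ACS2, a synthase gene of the ripening burst, had values of 6.01921, 6.01920 and 6.01918 in drought fruits, against 6.01925, 6.01915 and 6.01916 in control fruits. The drought arrays lay inside the span of the controls. The whole range over 6 arrays was 0.000105, under the widest spike-in range. The difference was 9.8e-06 ± 3.4e-05 (SE, limma adjusted p = 0.907), with a 95% interval from -8.14e-05 to 0.000101. The probe set lay at the 8.75th to 8.77th percentile of each array, and the deposited values carry no call of whether it was above background.

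ACS4, the other synthase gene of ripening fruit, gave 6.70970, 6.71020 and 6.70960 in drought fruits. In control fruits it gave 6.71063, 6.70997 and 6.71010. Drought replicate 2 was above control replicates 2 and 3, so the groups overlapped. The difference was -0.00040 ± 0.00026 (SE, 95% interval -0.00110 to 0.000302, limma adjusted p = 0.416), and it was -0.00020 without control replicate 1. It was -0.0047 after quantile normalization (limma adjusted p = 0.173) and -0.0059 with each array centred on its median (limma adjusted p = 0.0201), a setting in which 9406 of the 10101 probe sets passed. The range of ACS4 (0.00103) was larger than that of any spike-in probe set but smaller than the largest of a housekeeping control. ACS4 lay at the 26.1st to 26.3rd percentile of each array.

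The array has 5 other ACC synthase genes, ACS3, ACS5, ACS6, ACS7 and ACS8, named here after their values were seen. None of the 5 passed limma's adjusted p (0.762% of all tested probe sets did), and 1 had an unadjusted p under 0.05, as did 25.0% of all tested. The mean was lower in drought for 4 of them, and 3 (ACS6, ACS7 and ACS8) had all drought arrays below all control arrays, as 14.3% of all tested probe sets did. ACS7 (-0.000358) and ACS8 (-0.000136) differed by less than the widest spike-in range (0.000467). Both lay low on the arrays, ACS7 at the 0.78th to 0.80th percentile and ACS8 at the 6.43rd to 6.44th. After median centring the mean was lower for all 5, a setting that separated 91.7% of all probe sets toward lower values. ACS6, like ACS1A a gene known from green fruit, stood at 8.438, 8.421 and 8.440 in drought fruits and at 8.525, 8.490 and 8.461 in control fruits. Its groups did not overlap, and it differed by -0.059 ± 0.018 (SE, limma adjusted p = 0.156). ACS3 was at 6.322, 6.321 and 6.344 in drought fruits, against 6.411, 6.499 and 6.338 in control fruits, with control replicate 3 among the drought arrays as for ACS1A (difference -0.087 ± 0.045, SE, limma adjusted p = 0.317). Without that array ACS3 differed by -0.13 ± 0.032 (SE, limma adjusted p = 0.120). The differences of ACS5, ACS7 and ACS8 ran from -0.000358 to 1.7e-06.

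ACO6, an ACC oxidase gene, was the one of the 5 genes whose groups did not overlap. Its probe set 2 gave 8.581, 8.641 and 8.632 in drought fruits, against 8.715, 8.727 and 8.679 in control fruits. The highest drought array lay 0.038 below the lowest control array. Drought replicate 1 was the lowest of all arrays, and control replicate 3 was the lowest control.

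ACO6 probe set 3 gave 8.226, 8.280 and 8.277 in drought fruits, against 8.323, 8.344 and 8.314 in control fruits. Probe set 1 gave 10.894, 10.908 and 10.905 in drought fruits, against 10.920, 10.919 and 10.913 in control fruits. In both, drought replicate 1 was again the lowest array and control replicate 3 the lowest control, and the gaps between the groups were 0.033 and 0.0053.

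The 3 probe sets thus gave the same direction in sizes that were not equal. Probe set 2 averaged 8.62 ± 0.032 in drought and 8.71 ± 0.025 in control (SD, n = 3 each), a difference of -0.089 ± 0.023 (SE, 95% interval -0.15 to -0.029, limma adjusted p = 0.117). Probe set 3 differed by -0.066 ± 0.019 (SE, 95% interval -0.12 to -0.015, limma adjusted p = 0.139). Probe set 1 differed by -0.015 ± 0.0045 (SE, 95% interval -0.027 to -0.0031, limma adjusted p = 0.145). Taken out of logarithms, the differences of drought from control are -6.0%, -4.47% and -1.04%. The intervals, which are not adjusted for the number of probe sets, leave out 0, while the adjusted p-values miss the threshold. With each array centred on its median, all 3 probe sets had a limma adjusted p of 0.0201 and ACS1A one of 0.0238, but 9406 of the 10101 probe sets passed in that setting and 91.7% of all had groups separated toward lower values. After quantile normalization the ACO6 adjusted p-values were 0.163 to 0.170. In whole-fruit RNA, fewer cells that express a gene and less of its RNA per cell cannot be told apart.

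Which arrays were high or low was nearly the same at the 3 ACO6 probe sets. Pearson's r between them was 0.981 to 0.988 over the 6 arrays, and 0.932 to 0.962 once each group's mean was subtracted. These figures describe probe sets of 1 gene on the same arrays. They show a shared pattern over the arrays, not equal sizes of difference, and are no further evidence on drought. The exact permutation p of each was 0.1, the smallest the design allows. When the 3 probe sets were averaged, ACO6 differed by -0.057 ± 0.015 (SE, limma adjusted p = 0.125).

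Lower values with no overlap are common among the tested probe sets, at 14.3%. A difference below -0.05 together with no overlap was found in 44 probe sets (0.436%). Probe sets 2 and 3, which have 1 gene as their target, are among them, and probe set 1 (-0.015) is not. The limit of 0.05 is arbitrary and the share depends on it, so this count is a description only. Of the 125 probe sets with a difference below -0.05 (1.24% of those tested), 35.2% had groups that did not overlap. In the other direction, 130 probe sets had a difference above 0.05, and 84.6% of these had groups that did not overlap. ACS1A is among those with overlapping arrays. Of 18 genes with 3 or more probe sets, 2 had all of them separated toward lower values in drought, ACO6 and MT4. The differences of MT4 ran from -0.0074 to -7.9e-05. Another 2 genes had all of them separated toward higher values, XTH16 with differences from 0.078 to 0.21 and LOC543511 with differences from 1.0e-05 to 0.0049. MT4, XTH16 and LOC543511 were named after their values were seen.

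**Figure D2:**
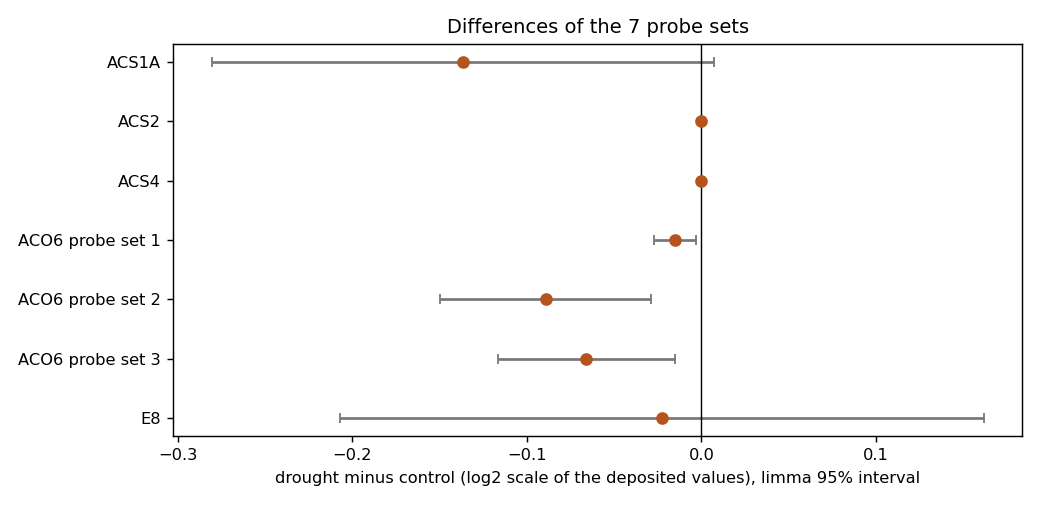
Difference between drought and control (horizontal axis, log2 scale of the deposited values) of the 7 probe sets, with limma's unadjusted 95% interval as bars. The 3 ACO6 intervals lie below 0, that of ACS1A ends at 0.0069, that of E8 runs from -0.21 to 0.16, and those of ACS2 and ACS4 are narrower than their points.

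The other ACC oxidase genes with a symbol on the array were ACO4 and ACO5, again named after their values were seen. ACO4 had values of 10.9494, 10.9492 and 10.9499 in drought fruits, against 10.9493, 10.9494 and 10.9488 in control fruits, with overlapping groups (difference 0.00030 ± 0.00025, SE, limma adjusted p = 0.517), and the sign turned under both other scalings. ACO5 differed by -0.00040 ± 0.00025 (SE, limma adjusted p = 0.403). ACO1, the best known ACC oxidase gene of ripening fruit, was not analysed here under that name.

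E8 had values of 7.202, 7.161 and 7.231 in drought fruits. In control fruits it had 7.358, 7.149 and 7.154. Control replicate 1 stood above all other arrays, and control replicates 2 and 3 below all drought arrays.

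The E8 mean was 7.20 ± 0.035 in drought and 7.22 ± 0.12 in control (SD, n = 3 each). The difference was -0.023 ± 0.069 (SE, 95% interval -0.21 to 0.16, limma adjusted p = 0.892, exact permutation p = 1). Without control replicate 1 it turned to 0.046 ± 0.025 (SE, limma adjusted p = 0.400), with both remaining controls below every drought array. With any other array left out it ran from -0.058 to -0.0040. No direction can therefore be given for E8.

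The genes also differed in which group varied more. The SD of the controls was larger than that of the drought arrays for ACS1A (drought 0.036, control 0.090) and for E8 (drought 0.035, control 0.12). At the 3 ACO6 probe sets it was the other way, as in probe set 1 (drought 0.0073, control 0.0035). With 3 arrays a group these SDs were not tested against each other.

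**Figure D3:**
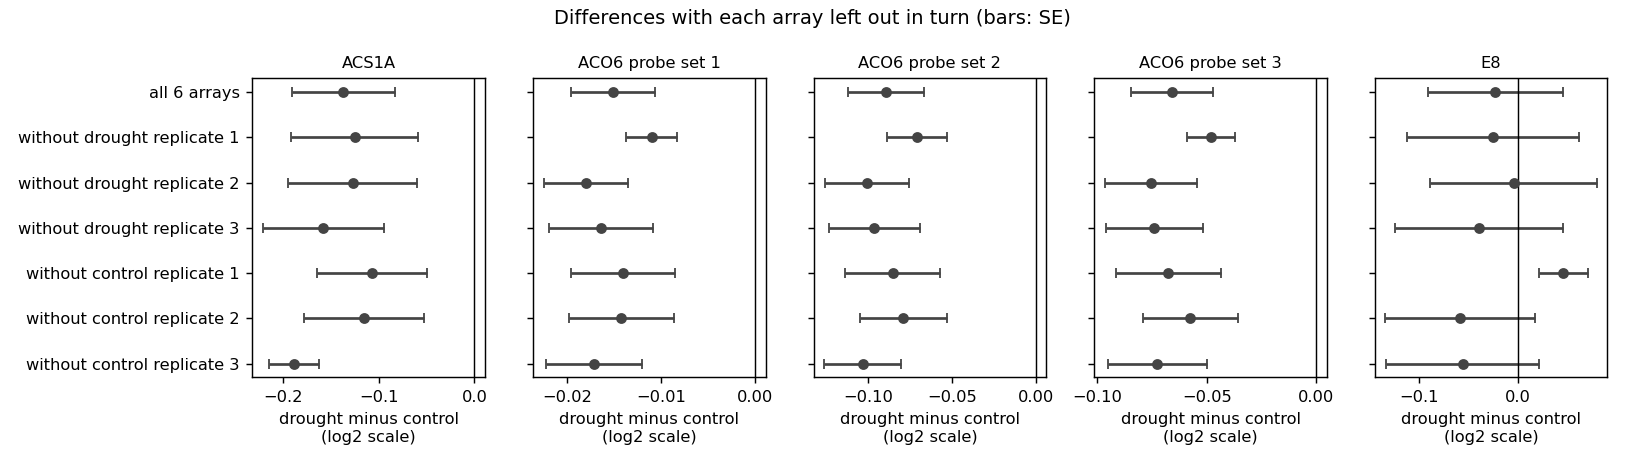
Difference between drought and control (horizontal axes, log2 scale of the deposited values, a scale of its own in each panel) with all 6 arrays and with each array left out, for ACS1A, the 3 ACO6 probe sets and E8. Bars are limma SEs. ACS1A and ACO6 stay below 0 in every row, and E8 moves to 0.046 without control replicate 1.

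In size, the differences of ACS1A and ACO6 belong to the upper end of the table. A larger absolute difference than that of ACS1A was found in 128 of the 10101 probe sets (1.27%). For the ACO6 probe sets the share was 1.67% (probe set 2), 2.12% (probe set 3) and 5.11% (probe set 1). For E8 it was 4.10%, for ACS4 24.1% and for ACS2 69.2%.

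**Figure D4:**
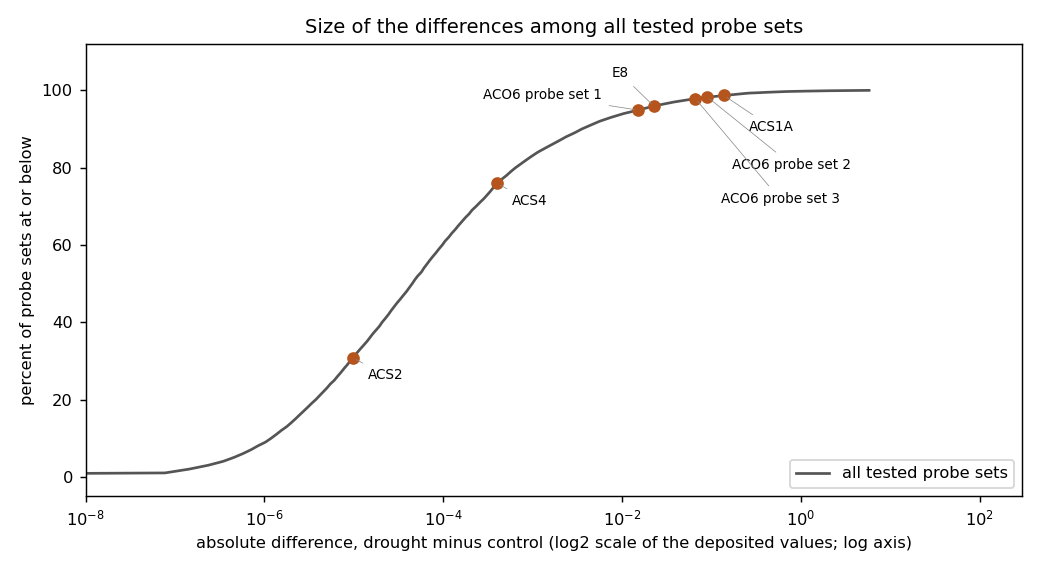
Percent of all tested probe sets (vertical axis) whose absolute difference between drought and control is at or below the value on the horizontal axis (log2 scale of the deposited values, drawn on a log axis). Points mark the 7 probe sets. ACS1A, ACO6 and E8 sit on the flat upper end of the curve, ACS4 on its upper slope and ACS2 in its lower part.

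Across the 6 arrays, the probe sets of the 5 genes fell into different patterns. ACS1A and the ACO6 probe sets correlated at r 0.812 to 0.880, and E8 with the ACO6 probe sets at 0.066 to 0.205. These values rest on 6 arrays in 2 groups and are given as a description.

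To name the genes whose pattern was most like each, all genes with 1 symbol and a range above that of the spike-ins were compared (405 genes). ACS1A was closest to IAA3, an auxin response repressor gene (r 0.996), Ve2, a gene of the Verticillium resistance locus (0.995), and HT2, a hexose transporter gene (0.993). In all of these, controls 1 and 2 were high and control 3 lay near the drought arrays, and 46 of the 405 genes had an r over 0.9 with ACS1A. This is therefore a frequent pattern on these arrays.

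E8 was closest to NOR (r 0.992), which encodes a NAC transcription factor that tomato fruit needs to ripen. NOR stood at 6.773, 6.766 and 6.774 in drought fruits, against 6.803, 6.762 and 6.761 in control fruits. As for E8, control replicate 1 was the highest array and control replicates 2 and 3 the lowest. NOR differed by -0.0043 ± 0.013 (SE, limma adjusted p = 0.895). FRO1, a ferric-chelate reductase gene (0.969), and PTOX, the gene of the plastid terminal oxidase (0.923), came next, and 4 of the 405 genes had an r over 0.9 with E8.

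The ACO6 probe sets were most like PMEU1 (r 0.977 to 0.995) and PE1 (0.951 to 0.982), both pectin methylesterase genes. TDR8, a MADS-box gene, was named for probe set 2 (0.954) and probe set 3 (0.934), and PME2.1, also a pectin methylesterase gene, for probe set 1 (0.923). PMEU1 gave 10.924, 10.937 and 10.935 in drought fruits, against 10.946, 10.946 and 10.941 in control fruits, with drought replicate 1 the lowest array as for ACO6. Its difference was -0.012 ± 0.0044 (SE, limma adjusted p = 0.190). PE1 differed by -0.00041, smaller in size than the widest spike-in range (0.000467). Of the 405 genes, 7, 17 and 8 had an r over 0.9 with ACO6 probe sets 1, 2 and 3.

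ACS4 was closest to the gene LOC543932 (r 0.942), to the ascorbate peroxidase gene APX1 (0.908) and to the MADS-box gene TDR6 (0.876). ACS2 did not exceed the spike-in range and was not compared.

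**Figure D5:**
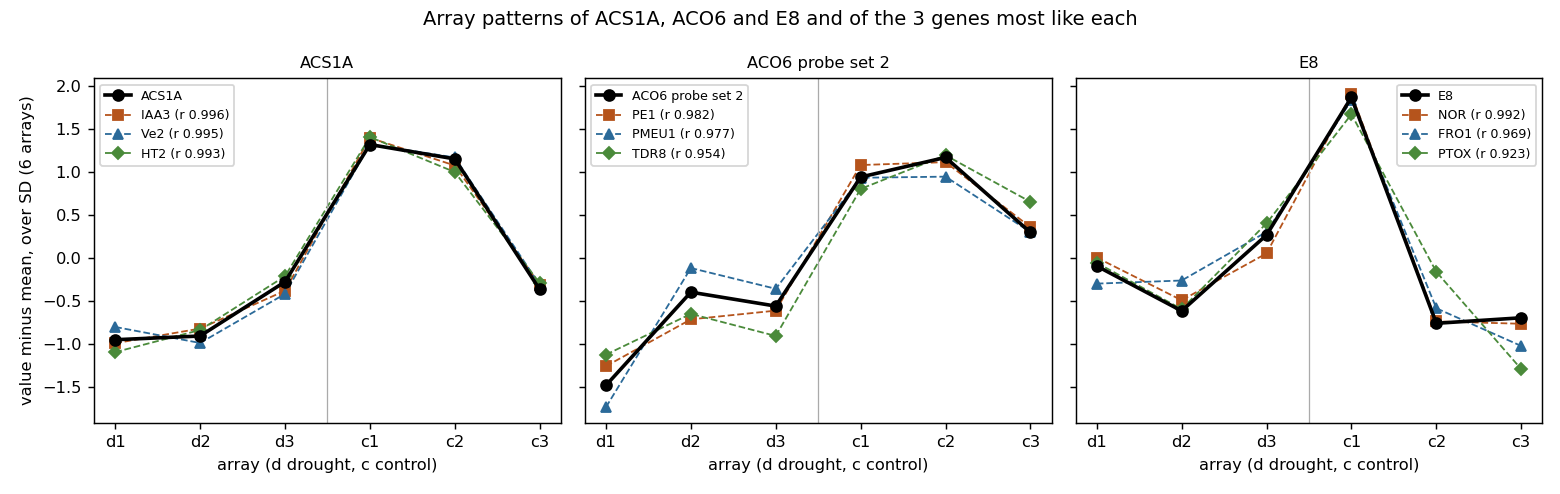
Values of ACS1A, ACO6 (probe set 2) and E8 on the 6 arrays, each minus its mean and divided by its SD over the arrays (vertical axis), with the 3 genes of highest Pearson r. Lines join the arrays of a gene to guide the eye, and replicates have no order. Controls 1 and 2 are high for ACS1A, all 3 controls for ACO6, and control 1 for E8.

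The rest of the ethylene pathway on the array comprised 41 genes. None of the 41 passed limma's adjusted p (0.762% of all tested probe sets did), and 9 had an unadjusted p under 0.05, as did 25.0% of all tested. Means were lower in drought for 22 and higher for 19 as deposited, but lower for 39 after quantile normalization and for 40 with each array centred on its median, so that small differences in this list have no direction of their own. As deposited, the median difference was -3.8e-06, against -1.07e-07 over all tested probe sets. At the start of the pathway, the S-adenosylmethionine synthetase genes SAM1 and SAM3 differed by -6.1e-06 and 6.5e-06, with limma adjusted p-values of at least 0.685.

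Of the 6 receptor genes, 5 had higher and 1 had lower means in drought as deposited, while 5 had lower means after quantile normalization and likewise after median centring. As deposited, the differences ran from -3.55e-05 to 0.0098. ETR3, the Never-ripe receptor gene (annotated as LOC544279 and matched by its RefSeq synonym), stood at 9.0851, 9.0851 and 9.0851 in drought fruits, against 9.0856, 9.0844 and 9.0848 in control fruits, where the drought arrays lay inside the controls' span (difference 0.00013 ± 0.00034, SE, limma adjusted p = 0.877).

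Of 9 genes for signalling between the receptors and the nucleus, 4 had lower and 5 had higher means as deposited, and all 9 had lower means under both other scalings. CTR3, which encodes a kinase of the family that represses the response, had the smallest p of the pathway. It was at 8.2582, 8.2584 and 8.2588 in drought fruits, against 8.2567, 8.2565 and 8.2569 in control fruits, with no overlap (difference 0.0017 ± 0.00020, SE, limma adjusted p = 0.0539). Its difference turned to -0.00042 after quantile normalization and to -0.0038 after median centring.

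Of 10 response factor genes, 7 had lower means as deposited and all 10 under both other scalings. The gene of the factor TERF1 (LOC606712, matched in the same way) gave 6.368, 6.365 and 6.369 in drought fruits, against 6.424, 6.405 and 6.409 in control fruits, without overlap (difference -0.045 ± 0.0057, SE, limma adjusted p = 0.0539). PTI5 had one of the largest differences of the list, at 6.103, 6.115 and 6.519 in drought fruits, against 6.784, 6.641 and 6.201 in control fruits. Its groups overlapped, and it differed by -0.30 ± 0.21 (SE, limma adjusted p = 0.457), or by -0.47 ± 0.17 without control replicate 3 (SE, limma adjusted p = 0.197).

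Of 7 ethylene-responsive genes other than E8, 4 had lower means as deposited and all 7 under both other scalings. ER5, a LEA-like gene, had the largest difference of the list in size, with 8.517, 8.439 and 8.705 in drought fruits, against 8.987, 9.056 and 8.617 in control fruits. As for ACS1A, control replicate 3 lay below drought replicate 3 (difference -0.33 ± 0.15, SE, limma adjusted p = 0.264). Without control replicate 3 it differed by -0.47 ± 0.099 (SE, limma adjusted p = 0.0908). ER1, another ethylene-responsive gene, named after its values were seen, had 6.312, 6.272 and 6.267 in drought fruits, against 6.476, 6.629 and 6.570 in control fruits. Its groups did not overlap, and it differed by -0.27 ± 0.045 (SE, limma adjusted p = 0.0639).

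The ripening regulators and effectors other than E8 comprised 24 genes. PME2.1, which is a pectin methylesterase gene, fell by 0.014 ± 0.0013 in drought (SE, limma adjusted p = 0.0482). It was the only one of the 24 to pass limma's adjusted p, as 0.762% of all tested probe sets did. An unadjusted p under 0.05 was found for 11 of the 24, against 25.0% of all tested. The number of the 24 that passed the adjusted p was 0 after quantile normalization, with the replicate number as a block and without any single array other than control replicate 3, and 2 without that array. Of the 24, 20 had lower means in drought as deposited (50.8% of all tested), and the list's median difference was -0.00033. Lower means numbered 23 after quantile normalization and 24 after median centring. Those scalings moved the median difference of all probe sets to -0.0035 and -0.0055, so these counts say little about the list itself. As deposited, 11 of the 24 had all drought arrays below all control arrays (14.3% of all tested). Among the 11, PG2 (-2.1e-06), hdc (-2.3e-05), ZDS (-7.3e-05) and PE1 (-0.00041) differed by less than the widest spike-in range (0.000467), and the others by more. RIN, the MADS-box regulator that acts upstream of ACS2, ACS4 and E8 in ripening tomato, gave 5.934, 5.943 and 5.947 in drought fruits, against 6.201, 6.039 and 6.005 in control fruits. The groups did not overlap, and control replicate 1 stood apart as for E8 (difference -0.14 ± 0.058, SE, limma adjusted p = 0.232). RIN lay low on the arrays, between the 6.03rd and the 14.8th percentile, with no call of whether it was above background. LOX1.1, a lipoxygenase gene, differed by -0.046 ± 0.014 (SE, limma adjusted p = 0.143).

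Markers of other parts of the fruit were set beside the ACO6 result. Of 3 cuticle and epidermis genes, all 3 had lower means in drought and 2 had groups without overlap, with differences from -0.020 (TSW12, limma adjusted p = 0.0636) to -0.0051 (ltpg1). LE16 differed by -0.0052. The 3 chlorophyll-binding protein genes CAB4, CAB5 and CAB6A differed by -0.0030, -0.022 and -0.00061, each with overlapping arrays. LEA14, the single seed-list gene, differed by -0.0039 with no overlap. Without control replicate 3 the differences of CAB4, CAB5 and CAB6A turned to 0.013, 0.027 and 0.0013 (limma adjusted p = 0.705, 0.831 and 0.787). None of these 7 genes passed limma's adjusted p (0.762% of all tested did) and 3 had an unadjusted p under 0.05 (25.0% of all tested). Over all tested probe sets, 50.8% had lower means and 14.3% were separated toward lower values. Their part in the ACO6 values was not tested.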

How the data were processed

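The members and the gene lists were chosen with earlier results of these data known. The deposited table holds 1 value per probe set and array, taken as log2 from the values themselves (5.46 to 15.8). How the authors corrected, normalized and summarized the signals is not given in the labels or the file. The labels' protocols name TRIzol extraction, RNeasy clean-up and biotin-labelled cRNA from 100 ng of total RNA. No detection calls were used. The number of arrays limits the precision.

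The 108 control probe sets were left out and 10101 tested, 909 with 1 gene symbol in GEO's platform annotation. Lists were matched by symbol or RefSeq synonym (assembly SLM_r2.1), with the brightest probe set per gene. No sequences or coordinates are given.

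Drought minus control was fitted in R 4.3.3 with limma 3.58.1 (lmFit, eBayes, two-sided, Benjamini-Hochberg over all tested probe sets, threshold 0.05), with no block or filter. Named besides the 5 genes were, per list, the called genes or the 2 smallest p-values, the 2 largest differences, the 3 genes most like each member, and RIN, NOR and ETR3. The procedure was tested on simulated arrays. Alternatives were another scaling, a filter on dim probe sets, the replicate block, another prior, array weights, averaged probe sets, unadjusted p-values and leaving out each array. All 15 pairs of arrays differed by over 0.1 in at least 47 probe sets, so none was treated as a copy.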

Additional observations from a re-analysis of the deposited data

How the results depend on the processing

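Over the 5 genes, ACS1A, ACS4 and the 3 ACO6 probe sets kept a negative difference under every alternative that gave them a value, and ACS2 and E8 did not. Centring each array on its median moved the median difference of all probe sets to -0.0055, gave 9406 calls (9192 lower) and called 6 of the 7 probe sets, with 5 separated, 35 of the 41 ethylene genes, 19 of the 24 ripening genes and 4 of the 7 marker genes of other tissues. There 91.7% of all probe sets were separated toward lower values, and ACS2 turned to -0.00552. Quantile normalization gave 0 calls over all probe sets and 0 in the ripening list. With array weights there were 391 calls, 3 in the ethylene list, 2 in the ripening list and 1 among the marker genes. Unadjusted p-values under 0.05 numbered 2524, with 3, 9, 11 and 3 among the 7 probe sets, the ethylene list, the ripening list and the markers. Without the dimmest 30% of probe sets, which removes ACS2 and ACS4, 2 ripening genes passed. With each gene's probe sets averaged, 1 of the 5 genes (ACO6) was separated, toward lower values, as were 14.3% of all tested in that setting. The causes were not tested.

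With each array left out in turn, calls over all probe sets ran from 0 (without control replicate 2 or drought replicate 3) to 546 (without control replicate 3), calls in the ripening list from 0 to 2, and separated member probe sets from 3 to 5, the 5 arising without control replicate 1, where ACS2 and E8 were higher in drought. Calls among the 7 probe sets, the ethylene list and the markers stayed at 0. ACS2 ran from -8.9e-06 (without control replicate 2) to 4.38e-05, at -5.5e-06 without control replicate 3. E8 ran from -0.058 to 0.046, and limma adjusted p for the ACO6 probe sets from 0.0981 to 0.331.

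Same-numbered arrays did not deviate together (r -0.092, -0.023 and -0.11 for replicates 1 to 3), and no array correlated best with its own number, so the numbers are not taken as pairs. With the replicate block there were 0 calls over all probe sets and 0 in the ripening list, and the ACO6 adjusted p-values were 0.269 to 0.325. Alternative background corrections, slide blocks and pseudocounts could not be run on deposited log2 summaries.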
